A study of Homo sapiens with 4 samples.

Results

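BEX and TCEAL genes encode small proteins and lie together in a cluster on the long arm of the human X chromosome. The 10 genes described here (BEX1 to BEX5, TCEAL1, TCEAL3, TCEAL4, TCEAL8 and TCEAL9) were picked by name, current or earlier, from the platform annotation. BEX3 was formerly named NGFRAP1, and TCEAL9 was named WBP5. The 10 genes were represented by 21 of the 48803 probes and were 10 of the 18665 named genes. The choice followed the contrast of LvM3b control cells with Ls-Parental cells, in which BEX2 and BEX3 stood far apart, so that contrast is given as a description with no test.

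Levels came from Illumina bead arrays of 4 cultures of human colon adenocarcinoma cells, with 1 array per culture. LvM3b is known as a colon cancer line selected in the liver. Of its 3 cultures, 1 was a control, 1 over-expressed miR-483 (given as miR-483-5p in the title of the series) and 1 over-expressed miR-551a. The remaining culture was Ls-Parental, a parental colon cancer line taken as a control. All 4 grew in the same serum-containing medium and were collected below full confluence. How the microRNAs were over-expressed, and whether the cells were pools or clones, is not stated in the labels, and the microRNAs themselves were not measured. The cell line entry of Ls-Parental reads LvM3b, while its title and source name say Ls-Parental.

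BEX stands for brain expressed X-linked, and these proteins act as adaptors that bind receptors and transcription regulators. BEX3, also called NADE, binds the intracellular part of the neurotrophin receptor NGFR and takes part in its cell death signal, and BEX1 binds the same receptor. TCEAL stands for transcription elongation factor A-like, after a resemblance to the elongation factor TFIIS. In glioma, BEX1 and BEX2 are known to be silenced by promoter methylation, which these arrays do not measure.

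Each array detected between 13861 and 14628 probes at a detection p under 0.01, and the lowest detected log2 level lay between 6.13 and 6.38. Across all probes, Pearson's r was between 0.993 and 0.994 among the LvM3b arrays and between 0.985 and 0.986 for each against Ls-Parental. Of 12 colon epithelium markers, 10 were detected on each LvM3b array and 11 on Ls-Parental, FABP1 was detected on none, and the summed level ranged from 107523 to 112070. With 1 array per group no p-value was computed, and the number of arrays limits the precision. Levels below are log2 normalized signals, and a fold is a ratio of normalized signals between arrays for 1 probe. A summed level instead adds the normalized signals on the linear scale, over all genes of a list on the array, detected or not. A fold written "at least" sets the detected level against the lowest detected level of an array on which the probe was not well above background, or against the probe's own level there if that is higher. Such a limit holds only for the normalization used here, and other processing gave smaller measured differences for some genes.

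The 10 genes fell into 3 patterns. BEX2, BEX3 and TCEAL9 were many-fold higher on the Ls-Parental array than on any LvM3b array, and BEX1 was detected on Ls-Parental alone, at a low level. TCEAL1, TCEAL3, TCEAL4 and TCEAL8 were detected on all 4 arrays at similar levels. BEX4 and BEX5 were detected on none. In all, 8 of the 10 genes were detected on at least 1 array, 5 of them on every array and 3 on Ls-Parental alone.

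**Figure D1:**
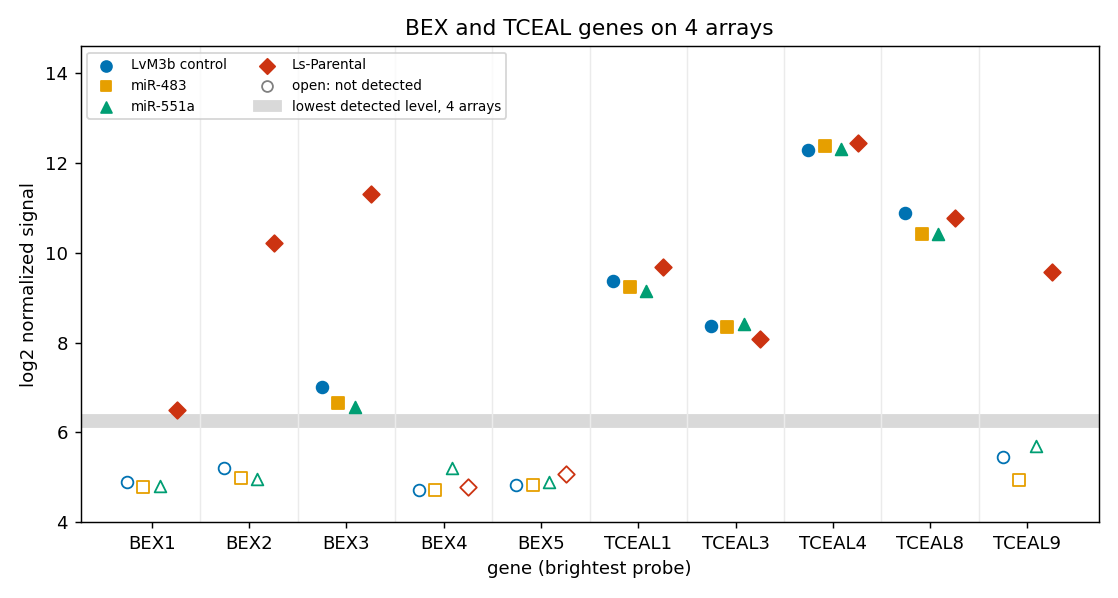
Log2 normalized signal (vertical axis) of the brightest probe of each of the 10 genes (horizontal axis) on the 4 arrays, with 1 point per array, open where the probe was not detected, and a grey band for the lowest detected level of the arrays, 6.13 to 6.38. The Ls-Parental diamonds of BEX2 (10.22), BEX3 (11.31) and TCEAL9 (9.58) stand above the LvM3b points, while the 4 arrays lie close together for TCEAL1, TCEAL3, TCEAL4 and TCEAL8.

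The promoter sequences of these genes are shown because 8 of the 10 genes, some far lower in LvM3b and some at similar levels in both lines, hold the same short sequence element near their start. RefSeq promoter windows of GRCh38.p14, from 250 bases before to 50 bases after a transcript start, were found for all 10 genes, 15 windows in all. The E-box CACGTG, which reads the same on both strands and is known as a site for basic helix-loop-helix factors such as USF and MYC, was present for 8 of the 10 genes. By window it was present in 9 of 15, against 7.26% of the 35116 windows of all genes. Of the TCEAL genes outside the choice, TCEAL2, TCEAL5 and TCEAL6 had a window, and all 3 held CACGTG. The E-box is therefore not particular to the 10 genes. Counted by gene, the longer palindrome TCACGTGA, which contains that E-box, was present for 6 of the 10 genes. Counted by window, it was present in 0.98% of all windows, so these are not like measures. CACGTG began between 3 and 80 bases before the start in the windows read here. For genes with several windows the first that holds the E-box was read. These genes are related by duplication, so the matches are not independent, and a match is a description and not a measured binding site. Each line below gives 40 bases, 5′ to 3′, with CACGTG, or the matching bases in TCEAL9, in capitals.
BEX1, chrX:103064196-103064235, minus strand: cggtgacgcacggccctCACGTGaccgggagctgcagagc
BEX3, chrX:103376474-103376513, plus strand: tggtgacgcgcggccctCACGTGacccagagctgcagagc
BEX2, chrX:103310987-103311026, minus strand: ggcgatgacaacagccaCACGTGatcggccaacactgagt
BEX4, chrX:103215072-103215111, plus strand: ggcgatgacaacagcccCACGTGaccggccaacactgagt
TCEAL1, chrX:103628902-103628941, plus strand: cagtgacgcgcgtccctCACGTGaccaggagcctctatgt
TCEAL3, chrX:103607866-103607905, plus strand: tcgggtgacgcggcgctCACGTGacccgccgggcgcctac
TCEAL4, chrX:103585488-103585527, plus strand: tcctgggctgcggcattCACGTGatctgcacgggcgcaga
TCEAL8, chrX:103255164-103255203, minus strand: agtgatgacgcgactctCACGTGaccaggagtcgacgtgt
TCEAL9, chrX:103356452-103356491, plus strand: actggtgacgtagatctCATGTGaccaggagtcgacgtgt

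Neither window of BEX5 holds CACGTG. In the TCEAL9 window, 33 of 40 bases were alike with the TCEAL8 stretch, and of the 7 that differ 1 falls in CACGTG. That substitution is C3T, written as the TCEAL8 base, its position from the 5′ end of the hexamer and the TCEAL9 base. The TCEAL9 hexamer CATGTG was present on either strand in 11.1% of all windows. The matched hexamer began 37 bases before the TCEAL9 start and 31 bases before the TCEAL8 start. TCEAL8 was detected on all 4 arrays and TCEAL9 on Ls-Parental alone. Of the 4 genes with a higher measured level on Ls-Parental, BEX1 (at least 1.09-fold against the control), BEX2 and BEX3 hold CACGTG. All 4 genes detected at similar levels everywhere hold it too, as does BEX4, which was detected on no array. Whether the E-box has a part in the levels was not tested.

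Whole windows are given for the 3 genes with the widest differences, with BEX4 beside BEX2. BEX4 and BEX2 had the most alike of the 45 pairs of windows, 76.6% identical in a global alignment against a median of 51.6% over the pairs. BEX1 and BEX3 were 73.8% identical and TCEAL8 and TCEAL9 60.9%. BEX2 was detected on Ls-Parental, and BEX4 was not detected there with either probe. The capitals mark the same bases as above.
BEX3, chrX:103376288-103376587, plus strand: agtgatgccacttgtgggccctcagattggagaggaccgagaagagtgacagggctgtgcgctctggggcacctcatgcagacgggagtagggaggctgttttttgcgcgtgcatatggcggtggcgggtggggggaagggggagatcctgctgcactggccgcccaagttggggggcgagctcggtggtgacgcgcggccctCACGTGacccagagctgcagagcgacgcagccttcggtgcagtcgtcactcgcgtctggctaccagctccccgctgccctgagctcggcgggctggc
BEX2, chrX:103310941-103311240, minus strand: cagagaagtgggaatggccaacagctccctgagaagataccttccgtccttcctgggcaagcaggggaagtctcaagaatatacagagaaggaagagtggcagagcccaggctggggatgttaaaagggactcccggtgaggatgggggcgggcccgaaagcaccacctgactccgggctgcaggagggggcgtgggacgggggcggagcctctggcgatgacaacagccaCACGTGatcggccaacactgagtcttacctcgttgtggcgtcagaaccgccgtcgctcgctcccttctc
BEX4, chrX:103214842-103215141, plus strand: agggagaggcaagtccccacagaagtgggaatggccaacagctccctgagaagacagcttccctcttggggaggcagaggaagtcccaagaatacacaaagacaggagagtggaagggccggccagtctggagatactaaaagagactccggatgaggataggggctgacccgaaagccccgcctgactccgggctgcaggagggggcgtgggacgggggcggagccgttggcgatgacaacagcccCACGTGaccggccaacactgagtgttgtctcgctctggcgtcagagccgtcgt
TCEAL9, chrX:103356256-103356555, plus strand: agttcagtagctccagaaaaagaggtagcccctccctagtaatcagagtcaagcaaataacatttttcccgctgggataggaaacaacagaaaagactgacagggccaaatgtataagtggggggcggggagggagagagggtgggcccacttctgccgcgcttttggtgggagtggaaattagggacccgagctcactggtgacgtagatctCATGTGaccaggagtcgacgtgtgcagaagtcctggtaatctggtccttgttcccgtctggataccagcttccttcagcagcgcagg

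The CpG content of the windows read, the observed over the expected count, was 0.71 for BEX3 (0.31 and 0.82 in its other windows), 0.77 for BEX1, 0.61 for BEX2 and 0.48 for TCEAL9. Among the genes detected at similar levels on every array it was 0.60 for TCEAL1 (0.38 in its other window), 0.76 for TCEAL3, 0.63 for TCEAL4 and 0.77 for TCEAL8. The median over all windows was 0.58. The values of BEX1, BEX2, BEX3 and TCEAL9 overlapped those of the evenly detected genes.

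BEX3 had a level of 7.01 on the LvM3b control array, 6.65 on the miR-483 array, 6.58 on the miR-551a array and 11.31 on Ls-Parental, read from probe ILMN_2370091. The 3 LvM3b levels lay within 0.44 of each other, close above the lowest detected level, and Ls-Parental lay apart from all of them. BEX3 was 19.7-fold lower in the LvM3b control than in Ls-Parental, 25.3-fold lower in miR-483 cells and 26.7-fold in miR-551a cells. Among genes detected on both arrays, its difference was the lowest but 1 of 9006 in the control comparison and the lowest of 9176 with miR-483 and of 9156 with miR-551a. These comparisons share the Ls-Parental array, so their likeness is no independent support.

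BEX3 had 2 further probes, and both were detected on Ls-Parental alone. For ILMN_1729208 the deposited signal was 131.1 on the control, 132.2 with miR-483, 106.7 in miR-551a cells and 308.9 on Ls-Parental, at least 2.92-fold, 3.44-fold and 3.35-fold higher on Ls-Parental in that order. For ILMN_1770537 it was 121.5, 112.0, 100.4 and 155.9, which gave a bound of 1.09-fold against miR-483, 1.07-fold against miR-551a and none against the control. Since these probes were detected on Ls-Parental alone, they give lower limits and set no size beside that of ILMN_2370091. With the mean of the detected probes the BEX3 log2 difference between the control and Ls-Parental was -2.66 in place of -4.30.

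BEX2, a regulator of apoptosis in breast cancer cells, had a level of 5.20 on the control, 4.98 with miR-483, 4.97 in miR-551a cells and 10.22 on Ls-Parental. Only the Ls-Parental level was detected, with deposited signals of 123.5, 110.3, 101.3 and 1142.2 on the same arrays. BEX2 was lower by at least 14.3-fold in the control, 16.8-fold in miR-483 cells and 16.4-fold in miR-551a cells. It had 1 probe. With the authors' processed values, the measured BEX2 log2 difference between the control and Ls-Parental was -3.33 in place of -5.02.

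TCEAL9, also known as the WW domain-binding protein gene WBP5, had a level of 5.46 on the control, 4.94 with miR-483, 5.70 in miR-551a cells and 9.58 on Ls-Parental. On the LvM3b arrays the detection p was 0.05, 0.22 and 0.02 in that order, so none passed 0.01. TCEAL9 was lower than in Ls-Parental by at least 9.16-fold in the control, 10.8-fold in miR-483 cells and 10.5-fold in miR-551a cells. Its second probe, ILMN_2340935, was also detected on Ls-Parental alone and gave bounds of 5.41-fold, 6.36-fold and 6.20-fold. With the authors' processed values, the measured TCEAL9 log2 difference between the control and Ls-Parental was -2.64 in place of -4.12.

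BEX1 was the weakest of the 4. Probe ILMN_1702637 had a deposited signal of 108.4 on the control, 100.8 with miR-483, 94.2 in miR-551a cells and 168.2 on Ls-Parental, and only the last was detected, at a detection p of 0.005. The bounds were 1.09-fold, 1.28-fold and 1.25-fold, so a 2-fold difference was not shown by bound. Its second probe, ILMN_2234697, had 121.2, 99.5, 87.2 and 100.2 and was detected on no array. BEX1 and BEX2 are close relatives, and whether signal of one probe comes from the other transcript was not tested, since probe sequences were not used here.

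**Figure D2:**
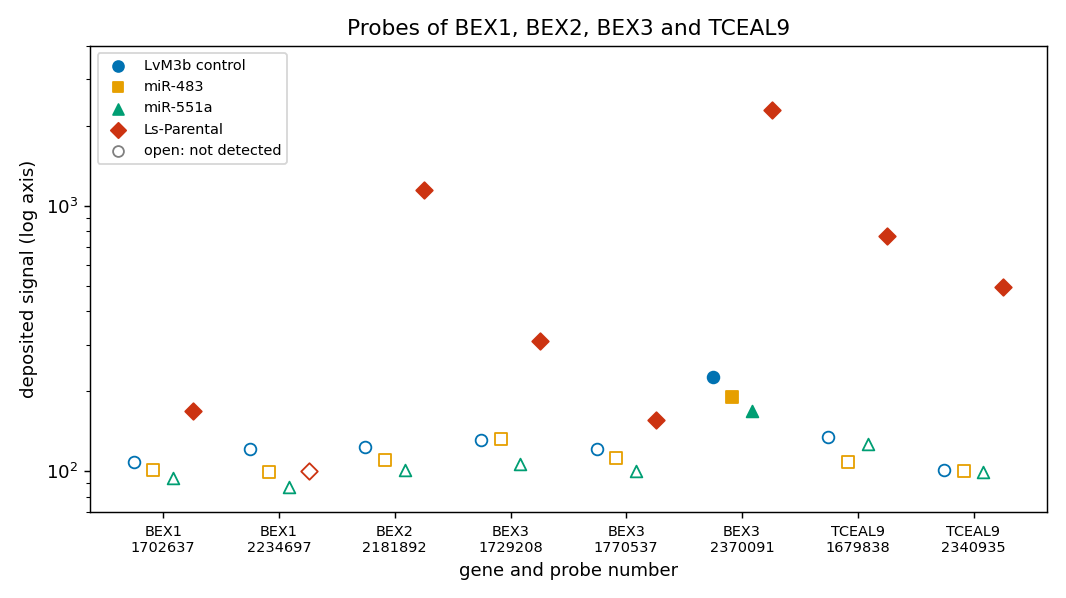
Deposited signal on a log axis (vertical) for each of the 8 probes of BEX1, BEX2, BEX3 and TCEAL9 (horizontal), with 1 point per array, open where the probe was not detected. Ls-Parental is the highest array for 7 of the 8 probes, and the exception is the second BEX1 probe, at 100.2 against 121.2 on the control.

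In measured differences, 4 of the 8 detected genes were at least 2-fold lower in the LvM3b control than in Ls-Parental and 0 were that much higher, where 2.74% of all 9817 genes tested were lower and 3.07% higher (269 and 301 genes, or 98 and 184 with the authors' values). The genes were chosen from this contrast, so the count is only a description. The same 4 of 8 were lower and 0 higher in miR-483 cells, where 2.99% of all genes were lower and 3.16% higher. They were again 4 lower and 0 higher in miR-551a cells, where 3.67% of all genes were lower and 3.24% higher (365 and 322 genes, or 144 and 199 with the authors' values). These 4 were lower on each of the 3 LvM3b arrays, as were 1.9% of all genes, while 2.09% were higher on each. With bounds in place of measured differences, BEX1 dropped out and 3 genes were counted as lower in each comparison, where 1.79% of all genes were lower in the control, 2.14% in miR-483 cells and 2.71% in miR-551a cells. The median log2 difference of the 8 genes was -0.96 in the control, or -0.23 with bounds, against -0.01 over all genes.

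The other 4 detected genes differed little between the lines. TCEAL4 had a level of 12.28 on the control, 12.37 with miR-483, 12.31 in miR-551a cells and 12.44 on Ls-Parental. Its differences from Ls-Parental were -0.16, -0.07 and -0.13, and they turned positive with the authors' processed values or with median scaling, so no direction is given. Its other probe was detected on no array.

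TCEAL3 had a level of 8.37 on the control, 8.35 with miR-483, 8.41 in miR-551a cells and 8.09 on Ls-Parental. It was the only one of these genes whose 3 LvM3b levels were all above Ls-Parental, by 0.26 to 0.33 on the log2 scale, and its second probe differed by 0.25 to 0.30. Over all genes detected on both arrays, the central 95% of differences between the control and Ls-Parental ran from -0.79 to 0.88, so TCEAL3 lay well inside. With median scaling the median of all genes moved from -0.01 to 0.10 in that comparison, and with the authors' values to 0.10.

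TCEAL1, a nuclear phosphoprotein that modulates transcription from some promoters, had a level of 9.38 on the control, 9.22 with miR-483, 9.15 in miR-551a cells and 9.68 on Ls-Parental. All 3 LvM3b levels were below Ls-Parental, by 0.30, 0.45 and 0.53. A second probe, ILMN_2398408, differed by -0.46, -0.30 and -0.46, and its remaining probe was detected on no array.

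TCEAL8 had a level of 10.87 on the control, 10.41 with miR-483, 10.42 in miR-551a cells and 10.77 on Ls-Parental. The control and Ls-Parental were close, and both microRNA arrays were lower than either. The other 2 probes differed between the control and Ls-Parental by 0.10 and -0.10.

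BEX4, which is known to associate with microtubules, had deposited signals of 96.7 on the control, 95.8 with miR-483, 110.1 in miR-551a cells and 94.3 on Ls-Parental with its brighter probe. The highest of these, with miR-551a, had a detection p of 0.07 and did not pass. BEX5 had 105.3, 102.4, 98.5 and 107.4 on the same arrays, with a lowest detection p of 0.10, so none was detected. The 4 TCEAL genes outside the choice, TCEAL2, TCEAL5, TCEAL6 and TCEAL7, had 5 probes, of which 0 were detected on any array. The reading nearest to detection among them was TCEAL5 on the miR-551a array, with a level of 5.49 and a detection p of 0.03.

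The genes were then set in their order along the X chromosome, from ARMCX4 to MORF4L2, a span chosen after the values were seen. It holds 34 protein-coding genes in the RefSeq table of GRCh38.p14, of which 28 were on the array and 14 were detected. BEX2, TCEAL7, TCEAL9 and BEX3 follow one another in that order, so the 3 genes with the widest differences lie together with TCEAL7, whose probes were detected on no array, in their midst. On one side the next detected gene is TCEAL8, with TCEAL5 between, and on the other it is TCEAL4, with RAB40A between. BEX1 lies apart from this run.

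The 6 detected genes of the span that are not among the 10 were between -0.47 and 0.45 in the control against Ls-Parental, with a median of -0.03, and 0 of them were 2-fold apart. ARMCX3, an armadillo-repeat gene, had 8.04 on the control, 8.13 with miR-483, 8.33 in miR-551a cells and 7.59 on Ls-Parental, so it was higher on every LvM3b array. GPRASP3 had 7.84, 7.75, 7.90 and 8.30 and was lower on every LvM3b array. MORF4L2, a chromatin-associated gene at the far end, had 12.17, 12.34, 12.24 and 12.09. Along the whole X chromosome, 322 genes were detected in this comparison, 15 were lower by 2-fold or more and 9 higher, with a median of -0.01. The 15 include BEX1, BEX2, BEX3 and TCEAL9, which were chosen from this contrast. Over all 9817 genes tested, 269 (2.74%) were lower and 301 (3.07%) higher, also with a median of -0.01.

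**Figure D3:**
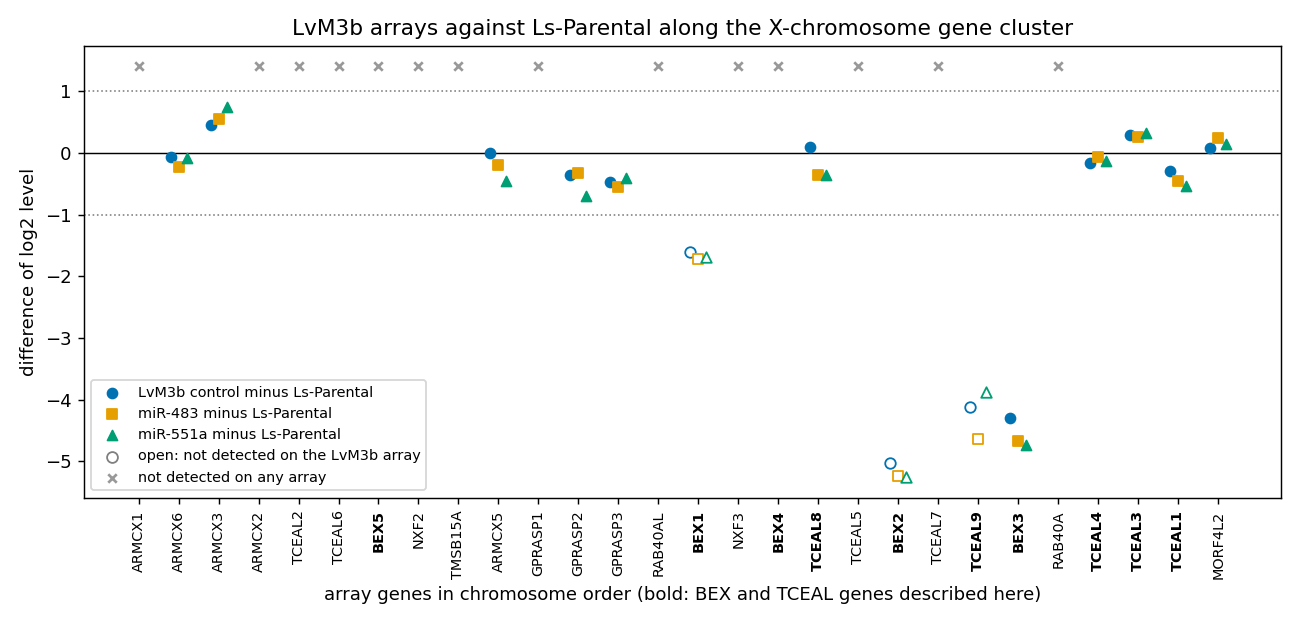
Difference of log2 level from Ls-Parental (vertical axis) for each of the 3 LvM3b arrays, for the 28 array genes of the span in chromosome order (horizontal axis, evenly spaced), with crosses along the top for genes detected on no array and open points where the gene was not detected on the LvM3b array. BEX2, TCEAL9 and BEX3 lie between -3.88 and -5.25 and BEX1 near -1.7, while the other detected genes lie between the dotted lines at 2-fold.

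Lists of related genes were read in the same contrast. Of 8 ARMCX and GPRASP genes on the array, which share the cluster, 5 were detected and 0 were 2-fold apart, with a median of -0.06; ARMCX5 had 9.45 on the control and 9.46 on Ls-Parental, and ARMCX6 had 8.59 and 8.66. Of 10 genes of the neurotrophin receptor and its partners, 7 were detected and 0 were 2-fold apart, with a median of -0.11, or 0 with bounds. NGFR itself, which BEX1 and BEX3 bind, and the neurotrophin receptors NTRK2 and NTRK3 were detected on no array. MAGED1, another adaptor of NGFR, had 12.29 on the control and 12.34 on Ls-Parental, and DIABLO, which relieves the inhibition of caspases, had 12.06 on both.

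Of 19 transcription elongation genes, 18 were detected, 0 were 2-fold lower in the control and 1 was 2-fold higher, with a median of -0.02. That gene was TCEA3, a form of TFIIS, with 10.60 on the control, 10.59 with miR-483, 10.46 in miR-551a cells and 9.45 on Ls-Parental, 2.21-fold higher in the control. Of 10 genes on a list of DNA methylation enzymes, readers and deacetylases, 6 were detected and 0 were 2-fold apart, with a median of 0.01. DNMT1, the maintenance methyltransferase, had 13.24 on the control and 12.99 on Ls-Parental, and the deacetylase HDAC2 had 13.50 and 13.84.

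BEX genes are best known from neural and endocrine tissue, so markers of such cells were read beside them. Of 12 on the array, 8 were detected on none, among them CHGA, CHGB and SYP, and of the other 4, 0 were 2-fold lower in the control and 1 was higher. The summed level was 1510 on the control, 1557 with miR-483, 1613 in miR-551a cells and 1222 on Ls-Parental. TUBB3, neuronal beta-tubulin, was 2.39-fold higher in the control than in Ls-Parental and carried the lowest place of Ls-Parental among these sums. Without it the sums were 978.7, 1010, 1097 and 999.4, and the Ls-Parental array lay within the range of the LvM3b arrays. Of these markers, 4 were detected on Ls-Parental and 2 on each LvM3b array. The lowest detected level was 6.38 on the control and 6.13 on Ls-Parental. In measured levels, 3 of those 4 were higher in the control than in Ls-Parental and 1 was lower, with a median difference of 0.07. In each microRNA culture 2 were higher and 2 lower. Of 12 fibroblast, immune and endothelial markers, 8 were detected on no array, among them PTPRC, COL1A1 and CDH5, and the summed level ranged from 720.1 to 805.4. CD14 was detected on Ls-Parental alone, at least 4.26-fold lower in the control, while LUM and COL3A1 were higher in the control by at least 4.97-fold and 1.41-fold. KRT20, an epithelial keratin, had 5.03 on the control and 6.72 on Ls-Parental, a bound of 1.26-fold, and was the 1 gene 2-fold lower among 11 detected epithelium markers. The part of these markers in the BEX and TCEAL9 differences was not tested. In bulk RNA, fewer cells that express a gene and less RNA per cell cannot be told apart.

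The genes most like BEX3 over the 4 arrays, apart from the 10, were FSTL5, THBS2, MKX, FOSB and MROH2A. Likeness was the root mean square difference of the 4 levels after subtracting each gene's mean, 0.15 for FSTL5, 0.20 for THBS2, 0.33 for MKX, 0.41 for FOSB and 0.42 for MROH2A. By this measure BEX2 lay at 0.27, TCEAL9 at 0.35 and BEX1 at 1.26 from BEX3. FSTL5, THBS2, MKX and MROH2A, like BEX1, BEX2 and TCEAL9, were detected on Ls-Parental alone, so these distances use LvM3b levels that were not detected and no order is read from them. The likeness rests on the Ls-Parental array. FSTL5, a follistatin-like secreted protein gene, had 5.13 on the control, 5.01 with miR-483, 4.72 in miR-551a cells and 9.25 on Ls-Parental. THBS2, a matrix thrombospondin, had 6.02, 5.49, 5.91 and 10.19. Their genes lie on chromosomes 4 and 6, and those of MKX, FOSB and MROH2A on 10, 19 and 2.

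The microRNA comparisons asked whether over-expression in LvM3b went with other levels of these genes. Of the 5 genes detected on the control or the miR-483 array, 0 were 2-fold apart, where 0.31% of all 9673 genes were lower by that much and 0.331% higher. Of the 5 detected for miR-551a, 0 were 2-fold apart, where 0.364% of 9619 genes were lower and 0.218% higher. Both comparisons share the control array. Without replicates, differences below 2-fold could not be set against a spread between cultures.

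TCEAL8 was 1.37-fold lower than the control on either microRNA array, a log2 difference of -0.46 on both. Of all genes tested, 3.48% were as low or lower in miR-483 cells and 4.09% in miR-551a cells. Its probes disagreed in size, since ILMN_1670561 differed by -0.30 and -0.10 and ILMN_2402272 by -0.15 and -0.10. The probes had the same direction.

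BEX3 was below the control by 1.29-fold in miR-483 cells (-0.36) and 1.35-fold in miR-551a cells (-0.44), from levels close to the detection limit. As low or lower were 5.82% and 4.61% of genes. Only 1 of its 3 probes was detected on the LvM3b arrays.

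TCEAL1 differed by -0.15 with miR-483 and -0.23 with miR-551a. Its second probe differed by 0.17 and 0.01, so the probes disagreed in direction. TCEAL3 differed by -0.02 and 0.04 and TCEAL4 by 0.09 and 0.03, and with median scaling the sign turned for TCEAL3 with miR-483 and for TCEAL4 with miR-551a. BEX1, BEX2, BEX4, BEX5 and TCEAL9 were not detected at a p under 0.01 on any of the 3 LvM3b arrays and entered neither comparison.

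**Figure D4:**
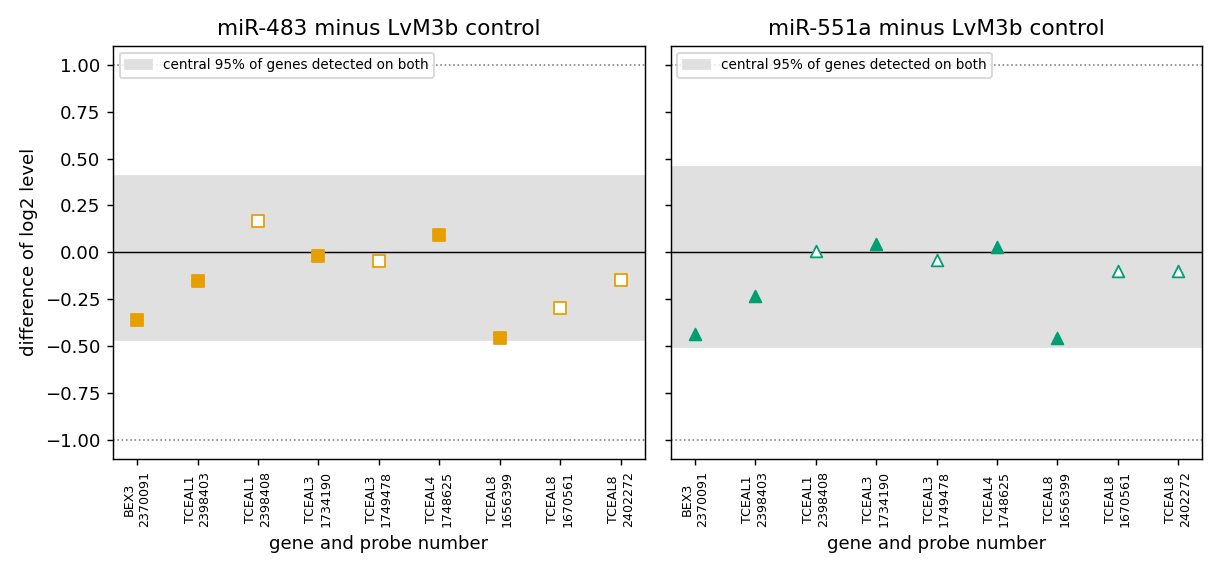
Difference of log2 level from the LvM3b control (vertical axis) for the 9 detected probes of BEX3, TCEAL1, TCEAL3, TCEAL4 and TCEAL8 (horizontal axis), for miR-483 on the left and miR-551a on the right, filled for the brightest probe of a gene and open for the others. The grey band holds the central 95% of genes detected on both arrays (-0.47 to 0.41 with miR-483, -0.50 to 0.45 with miR-551a), and all 9 probes lie inside it in both comparisons.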

How the data were processed

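The deposited table of 4 arrays gives 2 columns per array, per the file headers. One is a linear probe intensity, which the authors deposited before any normalization across arrays. The other, Detection, is a deposited score that is high for bright probes, and the detection p used here is 1 minus that score. The authors' processed intensity values equal the deposited signals times 1 factor per array, as a comparison of the values shows. No software for this step is named in the labels.

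From the signals, limma 3.58.1 in R 4.3.3 (neqc, offset 16) gave background-corrected, quantile-normalized log2 levels, checked on simulated arrays. Probes were named from the platform annotation, updated by gene number through RefSeq, and 27578 probes had 1 gene, 13 several and 21212 none. Each gene was represented by the probe with the highest mean level. A gene entered a comparison if detected on at least 1 of its 2 arrays. Promoter windows were aligned with Biopython 1.88.

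The members, gene lists and tests were chosen with earlier results of these data known. All 10 members are named; from each other list, up to 4 genes at least 2-fold apart between the control and Ls-Parental, or else the 2 brightest; and the 5 genes most like BEX3. PTPRC, COL1A1, CDH5, CHGA, CHGB, SYP, FABP1, NGFR, NTRK2, NTRK3, ARMCX3, GPRASP3, RAB40A and MORF4L2 were singled out after their values were seen. Alternatives were no background correction, the authors' values, median scaling, an offset of 50, the mean of detected probes, a detection p under 0.05, and bounds.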

Additional observations from a re-analysis of the deposited data

How the results depend on the processing

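No paired analysis was possible because every group has a single array with the same replicate number. The number of these genes at least 2-fold apart was 3 or 4 in each comparison with Ls-Parental under all 7 alternatives, and 0 in both microRNA comparisons. BEX2, BEX3 and TCEAL9 were counted under every alternative. BEX1 was not, and its log2 difference between the control and Ls-Parental was -0.76 without background correction and with the authors' values, -0.97 with an offset of 50 and -0.12 as a bound. Of 238 values of single genes under the alternatives, 194 moved by less than 1.5-fold, 44 moved further and 0 of the 2-fold differences reversed. In the control against Ls-Parental, BEX2, BEX3 and TCEAL9 lay between -2.64 and -3.47 with the authors' values, which keep the background signal. Counts over all genes depend on the same choices. For the control against Ls-Parental, 269 lower and 301 higher genes became 123 and 147 without background correction, 98 and 184 with the authors' values, 177 and 208 with an offset of 50, and 176 and 237 with bounds. For miR-483 against Ls-Parental, 298 and 315 became 138 and 143, 116 and 180, and 191 and 207 under the first 3 of these. For miR-551a, 365 and 322 became 169 and 157 without background correction and 144 and 199 with the authors' values. For miR-483 over the control, 30 and 32 became 1 and 2 under either of those settings, 8 and 3 with an offset of 50, 11 and 3 with bounds, and 63 and 48 at a detection p under 0.05. For miR-551a over the control, 35 and 21 became 6 and 0 without background correction, 8 and 0 with the authors' values, 15 and 2 with the offset, 18 and 2 with bounds, and 85 and 29 at the looser detection p. The median of all genes against Ls-Parental moved to at most 0.16, in miR-483 cells with median scaling. Levels near background limit what these arrays can show.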
